A study of Homo sapiens with 4 samples.

Results

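The genes described here are 10 genes of the Notch pathway in LNCaP, a human line of androgen-sensitive prostate cancer that was grown out of a lymph node metastasis. They are the ligand genes JAG1 and JAG2, the receptor genes NOTCH1, NOTCH2, NOTCH3 and NOTCH4, and the target family genes HES1, HES4, HES6 and HEY1. The members were chosen by name, as the rows of the deposited gene table with these symbols, and all 10 were found among the table's 17141 genes. RNA sequencing was performed on 2 libraries of LNCaP cells with stable RRM2 overexpression (LNCaP-RRM2) and 2 libraries of cells carrying empty vector (LNCaP-EV). The LNCaP-RRM2 line was made with a lentiviral vector encoding RRM2 and kept under puromycin selection. How the LNCaP-EV line was made, and whether a line is a clone or a pool, were not stated in the sources used here. RRM2 is the small subunit of ribonucleotide reductase, an enzyme that supplies deoxyribonucleotides for DNA synthesis. The comparison asked how Notch pathway transcripts differ in cells that overexpress RRM2. Whether the libraries of a group stem from separate cultures is not stated, and the p-values therefore reflect the spread of these samples alone, which could be technical.

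Notch signalling passes between touching cells. A JAG or DLL ligand on one cell binds a Notch receptor on its neighbour, the metalloprotease ADAM10 and then the gamma-secretase complex cut the receptor, and the freed intracellular domain enters the nucleus. There it joins the DNA-binding protein RBPJ and a MAML coactivator and switches on target genes. Among them are several HES and HEY genes, which encode basic helix-loop-helix repressors. In the prostate the pathway takes part in the growth and differentiation of the epithelium.

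The promoters of 3 HES genes are shown because these genes are relatives of which HES6 was called higher and HES1 and HES4 were not called. The difference between them was not tested. None of the 3 was called once the trend with GC content described below was removed (HES6 log2 fold change 0.41). Each sequence is the stretch of 250 bases before the RefSeq start of the gene (GRCh38.p14), written 5′ to 3′ on the strand of the gene. HES1 lies at chr3:194135898-194136147 on the plus strand, HES4 at chr1:1000098-1000347 on the minus strand and HES6 at chr2:238240039-238240288 on the minus strand. Capitals mark the RBPJ core TGGGAA, the N-box CACNAG to which HES proteins bind, and the E-boxes CAGCTG and CACGTG, each searched on both strands.
HES1: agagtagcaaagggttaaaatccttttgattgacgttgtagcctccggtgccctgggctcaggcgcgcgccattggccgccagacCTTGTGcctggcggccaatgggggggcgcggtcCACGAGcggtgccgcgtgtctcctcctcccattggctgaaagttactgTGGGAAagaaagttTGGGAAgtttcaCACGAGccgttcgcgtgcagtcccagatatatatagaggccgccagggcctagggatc
HES4: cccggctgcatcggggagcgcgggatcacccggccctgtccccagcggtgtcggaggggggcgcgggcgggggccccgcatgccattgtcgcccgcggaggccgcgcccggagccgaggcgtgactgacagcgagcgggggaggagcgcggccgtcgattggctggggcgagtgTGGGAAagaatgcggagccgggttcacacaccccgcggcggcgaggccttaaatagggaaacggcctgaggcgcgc
HES6: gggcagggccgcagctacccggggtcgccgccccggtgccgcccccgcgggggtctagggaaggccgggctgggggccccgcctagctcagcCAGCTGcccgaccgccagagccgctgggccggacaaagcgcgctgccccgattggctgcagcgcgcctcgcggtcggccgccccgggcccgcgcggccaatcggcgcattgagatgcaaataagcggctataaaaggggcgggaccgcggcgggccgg

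The RBPJ core was found at 2 positions in the HES1 promoter, starting 84 and 70 bases before the start, and once in the HES4 promoter, starting 76 bases before it. In both genes the first of these matches was preceded by a G, giving the longer motif GTGGGAA, and was followed by the letters agaa. Of the 9 members with a promoter in the RefSeq table, these 2 held the RBPJ core, which 20.8% of all 35116 promoter windows of this length held, and the same 2 held GTGGGAA, found in 5.43% of all windows. The N-box was present in HES1 at 3 places and once each in NOTCH3 and NOTCH4, against 32.0% of all windows. HES6 held neither, and had 1 match to the E-box CAGCTG (14.0% of all windows) 158 bases before its start, while no member held CACGTG (6.34% of all windows). A match of letters is a description and not a measured binding site. The deposited table places the first base of HES4 75 bases and that of HES6 86 bases upstream of the RefSeq start, so the printed windows overlap transcribed sequence of those models.

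Library totals ranged from 26601061 to 32601519 counts. RRM2 had 9291 and 8979 CPM (counts per 1000000 counts, scaled between libraries with TMM factors) in LNCaP-RRM2, against 318 and 343 CPM in LNCaP-EV, as the labels state. All 9 luminal prostate markers looked for were in the table. Their summed level was 9571 to 9905 CPM in LNCaP-RRM2 and 6560 to 6917 CPM in LNCaP-EV. KLK3 and TMPRSS2 were called higher, as were 12.5% of all genes. Differences between libraries followed the GC content of transcripts, both inside each group and between the groups, and for the groups the source of this trend was not tested. In the decile of genes with the highest GC content, the median log2 ratio of replicate 1 over replicate 2 was 0.27 in LNCaP-RRM2 and 0.67 in LNCaP-EV, while the ratio between the groups, LNCaP-RRM2 over LNCaP-EV, had a median of 0.51, whereas in the lowest decile these medians were -0.05, -0.11 and -0.22. The values of the Notch genes with this trend removed are therefore given beside those without.

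Most Notch ligand and receptor transcripts were higher in LNCaP-RRM2, while the HES and HEY genes went in different directions. With the GC trend removed HES1, HES4 and HEY1 had negative log2 fold changes and HES6 a positive one that was not called (0.41). Of the 10 members, 5 rose (JAG1, JAG2, NOTCH1, NOTCH3 and HES6), 2 were called lower (NOTCH4 and HEY1) and 3 were not called (NOTCH2, HES1 and HES4). A call required more than a 1.5-fold change and, in the quasi-likelihood test of edgeR, an adjusted p under 0.05 after Benjamini-Hochberg correction. In the same test 20.5% of all 15162 genes were called, 12.5% higher and 7.96% lower. Without the fold limit 8 members passed, NOTCH2 being added, against 42.2% of all genes. The median log2 fold change of the 10 members was 0.80, against -0.03 for all genes tested. The LNCaP-RRM2 libraries were both above the LNCaP-EV libraries in 6 members (34.5% of all genes) and both below in 3 (40.9% of all genes), and 75.3% of all genes had groups that did not overlap. All 10 members passed the filter on low counts. NOTCH4 passed only through its LNCaP-EV libraries, the group where it is high, so its call is a description and no independent support for a fall.

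**Figure D1:**
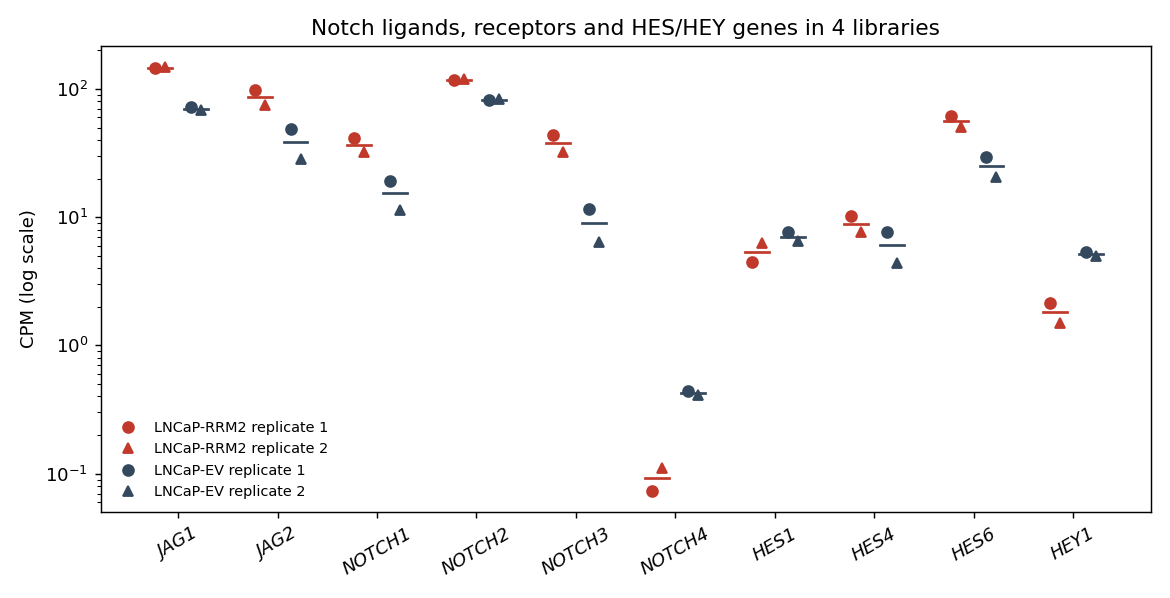
Level of each of the 10 Notch genes in each library, in CPM on a log axis. Circles are replicate 1, triangles replicate 2 and lines group means, with LNCaP-RRM2 in red and LNCaP-EV in dark blue; the groups overlap only for HES4, where LNCaP-RRM2 replicate 2 (7.59 CPM) lies below LNCaP-EV replicate 1 (7.69 CPM).

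JAG1 encodes a transmembrane ligand of Notch receptors and is found on chromosome 20 from 10637684 to 10674046 on the minus strand. It had 145 and 148 CPM in LNCaP-RRM2, against 71.7 and 68.0 CPM in LNCaP-EV. The libraries of a group lay close together and the groups were far apart, so that JAG1 rose 2.09-fold, with a log2 fold change of 1.07 and a standard error (SE) of 0.07 (edgeR, adjusted p = 0.00209). It remained called in each of the 19 alternatives run, with log2 fold changes of 1.04 to 1.16.

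JAG2 encodes the second ligand of the same family and lies on chromosome 14 from 105140981 to 105168824 on the minus strand. JAG2 had 98.2 and 74.8 CPM in LNCaP-RRM2, against 48.4 and 28.4 CPM in LNCaP-EV. Both groups were spread widely, with replicate 1 the higher library in each, but they did not overlap. The rise was 2.25-fold with a log2 fold change of 1.17 (SE 0.27, edgeR adjusted p = 0.0209). With the GC trend removed the log2 fold change was 0.59 (SE 0.06), just past the fold limit, and JAG2 lost its call when LNCaP-RRM2 replicate 1 or 2 was left out (edgeR adjusted p = 0.107 and 0.0559; range over all alternatives 1.07e-09 to 0.107).

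Per kilobase of transcript, the ligands summed to 41.2 and 37.7 CPM in LNCaP-RRM2 and to 20.4 and 16.3 CPM in LNCaP-EV. JAG1 made up 59.1% and 66.0% of that sum in LNCaP-RRM2, and 59.3% and 70.1% in LNCaP-EV. The ranges of the groups overlapped, so these shares did not differ beyond the spread of the libraries. The shares were not corrected for the GC trend, which touches JAG2. With that trend removed the log2 fold change was 1.05 (SE 0.05) for JAG1 and 0.59 (SE 0.06) for JAG2. The difference between them was not tested.

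NOTCH3, the receptor gene best known from the smooth muscle of small arteries, showed the largest rise of the 10. It is located on chromosome 19 from 15159633 to 15200981 on the minus strand. NOTCH3 had 43.8 and 32.4 CPM in LNCaP-RRM2, against 11.5 and 6.40 CPM in LNCaP-EV. Even the lower LNCaP-RRM2 library was well above the higher LNCaP-EV library. The rise was 4.23-fold, with a log2 fold change of 2.08 (SE 0.30, edgeR adjusted p = 0.00628), and it was 2.93-fold with the GC trend removed (log2 fold change 1.55, SE 0.10). NOTCH3 remained called in each of the 19 alternatives, the adjusted p reaching 0.0497 without LNCaP-RRM2 replicate 1.

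NOTCH1, the receptor gene mutated in T-cell leukaemias, lies on chromosome 9 from 136494433 to 136545786 on the minus strand. NOTCH1 had 41.3 and 32.2 CPM in LNCaP-RRM2, against 19.2 and 11.4 CPM in LNCaP-EV. The groups did not overlap, and again replicate 1 was the higher library of each. The rise was 2.39-fold with a log2 fold change of 1.26 (SE 0.27, edgeR adjusted p = 0.0164), and the log2 fold change was 0.73 (SE 0.08) with the GC trend removed. NOTCH1 missed the threshold without LNCaP-RRM2 replicate 1 or 2 (edgeR adjusted p = 0.0942 and 0.0545; range over all alternatives 9.30e-09 to 0.0942).

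NOTCH2, a receptor gene that, like JAG1, is mutated in Alagille syndrome, is found on chromosome 1 from 119911553 to 120069703 on the minus strand. NOTCH2 had 118 and 119 CPM in LNCaP-RRM2, against 81.9 and 83.0 CPM in LNCaP-EV. The libraries within a group were nearly equal, and the difference of 1.43-fold was under the fold limit although it passed the test (log2 fold change 0.52, SE 0.06, edgeR adjusted p = 0.00450). On leaving out LNCaP-RRM2 replicate 1 or 2, NOTCH2 no longer passed (edgeR adjusted p = 0.0744 and 0.0695; range over all alternatives 9.39e-10 to 0.0744). It was past the fold limit with upper-quartile scaling (log2 fold change 0.60), under the stricter filter (0.61) and without LNCaP-EV replicate 2 (0.62, and 0.61 with the GC trend removed as well). The table also lists NOTCH2NL, a partial copy of NOTCH2 with near-identical sequence, at 38.0 and 38.6 CPM in LNCaP-RRM2 and 35.3 and 33.0 CPM in LNCaP-EV. Reads shared between the copies make the level of NOTCH2 uncertain.

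NOTCH4, a receptor gene of endothelial cells, lies on chromosome 6 from 32194843 to 32224067 on the minus strand and was the only receptor gene called lower, at a level of few counts. Its counts were 2 and 3 in LNCaP-RRM2, against 14 and 11 in LNCaP-EV, or 0.0737 and 0.110 CPM against 0.443 and 0.412 CPM. The groups were apart, and the fitted level was 4.49-fold lower with a wide error (log2 fold change -2.17, SE 0.53, edgeR adjusted p = 0.0247). The call of NOTCH4 was lost on leaving out LNCaP-RRM2 replicate 1 or 2 (edgeR adjusted p = 0.193 and 0.127) or by the Wald test of DESeq2 (adjusted p = 0.196), over a range of 0.00112 to 0.196. GPSM3, a gene on the same strand that overlaps NOTCH4, had 5 and 4 counts in LNCaP-RRM2 and 16 and 9 in LNCaP-EV, and how overlapping reads were assigned is not given in the sources used here. Of 8 endothelial markers, 5 were in the table, with a summed level of 11.3 to 12.5 CPM in LNCaP-RRM2 and 7.22 to 10.2 CPM in LNCaP-EV. PECAM1, CDH5 and KDR were looked for and were not in the table. The lowest total of a gene in the table was 10 counts over the 4 libraries. The part of endothelial transcripts in the NOTCH4 result was not tested.

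**Figure D2:**
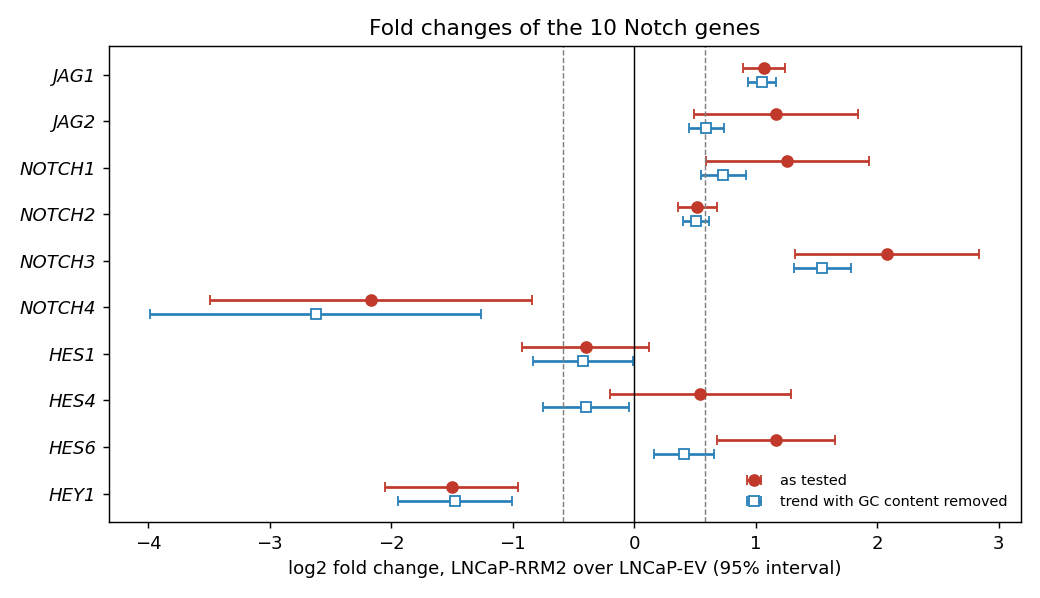
Log2 fold change of each gene, LNCaP-RRM2 over LNCaP-EV, with its 95% interval from the fit. Red circles are the values as tested, open squares those with each library's trend on GC content removed, and dashed lines mark a fold change of 1.5; JAG1, NOTCH2, HES1 and HEY1 hardly moved, whereas HES6 moved to 0.41 and HES4 to -0.40.

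The make-up of the receptor transcripts differed as well. Per kilobase of the longest transcript, the receptors summed to 19.8 and 17.6 CPM in LNCaP-RRM2 and to 10.7 and 9.31 CPM in LNCaP-EV. NOTCH3 made up 25.5% and 21.2% of this sum in LNCaP-RRM2, against 12.5% and 7.93% in LNCaP-EV. NOTCH2 was the most abundant receptor in every library, with 52.1% and 59.1% in LNCaP-RRM2, against 67.5% and 78.3% in LNCaP-EV. NOTCH1 took 22.4% and 19.7% in LNCaP-RRM2, against 19.4% and 13.1% in LNCaP-EV, and NOTCH4 was below 1% in each library. The groups were apart for each receptor, though narrowly for NOTCH1, and the shares were not corrected for the GC trend that touches NOTCH1 and NOTCH3. With 2 samples against 2 an exact permutation test (two-sided) cannot go below p = 0.333, so these shares are given without a test.

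**Figure D3:**
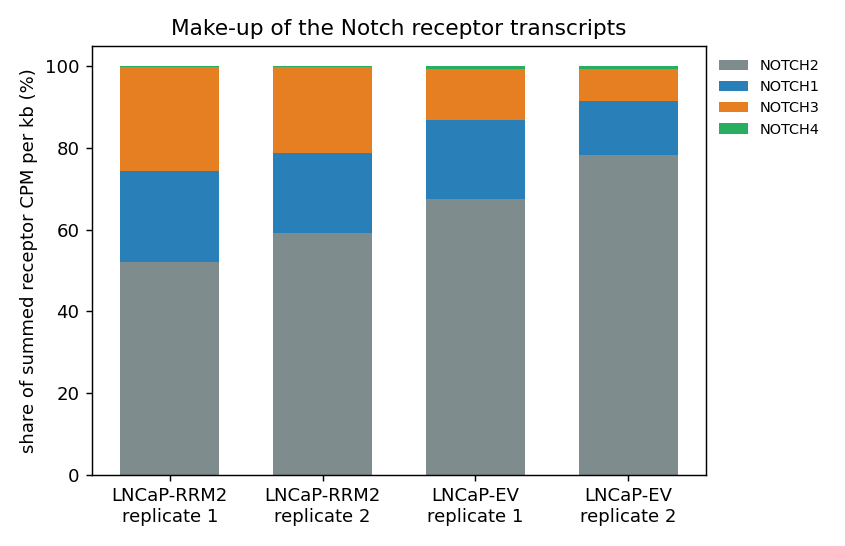
Share of each receptor gene in the summed receptor level of a library, in percent of CPM per kilobase of transcript. Bars are the 4 libraries; the NOTCH3 part is 25.5% and 21.2% in LNCaP-RRM2 against 12.5% and 7.93% in LNCaP-EV, and the NOTCH2 part is correspondingly smaller in LNCaP-RRM2.

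The summed levels of the fibroblast, leukocyte and basal markers were higher in LNCaP-RRM2. So were those of the luminal, endothelial and neuroendocrine markers. Of 8 fibroblast markers 5 were in the table, with a summed level of 27.1 to 36.0 CPM in LNCaP-RRM2 and 8.53 to 12.5 CPM in LNCaP-EV, and 3 of the 4 tested (COL1A1, COL3A1 and PDGFRB) were called higher. DCN, PDGFRA and THY1 were looked for and were not in the table. Of 6 leukocyte markers only CD68 and ITGAM were in the table, at 23.8 to 25.0 CPM in LNCaP-RRM2 and 6.03 to 6.14 CPM in LNCaP-EV, with 1 of the 2 called higher (CD68). Of 4 basal markers only KRT14 and KRT15 were in the table, at 2.86 to 3.39 CPM in LNCaP-RRM2 and 0.636 to 1.20 CPM in LNCaP-EV, and the 1 tested (KRT14) was called higher. Of all genes tested 12.5% were called higher, and the marker values were not corrected for the GC trend. The part of these markers in the NOTCH3 result was not tested. All libraries were of the 1 cultured line LNCaP, and the markers are named after the cell types they are used for. In bulk RNA, more cells expressing a gene and more of its RNA per cell cannot be told apart.

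HEY1, a target gene of Notch that encodes a repressor, fell. HEY1 is on chromosome 8 from 79764010 to 79767863 on the minus strand. HEY1 had 2.14 and 1.5 CPM in LNCaP-RRM2, against 5.38 and 4.94 CPM in LNCaP-EV, from 58 and 41 counts against 170 and 132 counts. Both LNCaP-RRM2 libraries were far below the LNCaP-EV libraries, and the fall was 2.83-fold (log2 fold change -1.5, SE 0.22, edgeR adjusted p = 0.00630). Its log2 fold change was -1.48 with the GC trend removed. HEY1 missed the threshold by little without LNCaP-RRM2 replicate 2 (edgeR adjusted p = 0.0533; range over all alternatives 9.24e-07 to 0.0533).

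HES1, the target gene most widely used as a readout of Notch activity, spans bases 194136142 to 194138612 of chromosome 3, plus strand. HES1 had 4.46 and 6.24 CPM in LNCaP-RRM2, against 7.59 and 6.51 CPM in LNCaP-EV. The LNCaP-RRM2 libraries were lower, but one of them was close to LNCaP-EV, and the difference was not called (log2 fold change -0.40, 95% interval -0.92 to 0.12, edgeR adjusted p = 0.173). The interval runs from 0.528-fold to 1.09-fold. HES1, whose promoter holds the 2 matches to the RBPJ core shown above, was called lower in 1 alternative, with the GC trend removed and LNCaP-RRM2 replicate 2 left out (log2 fold change -0.68, edgeR adjusted p = 0.0329; range over all alternatives 0.0252 to 0.653). Its log2 fold change over the alternatives ran from -0.68 to -0.18, the value nearest 0 being that without LNCaP-RRM2 replicate 1.

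HES4, a close relative of HES1, lies on chromosome 1 from 998962 to 1000172 on the minus strand. HES4 had 10.1 and 7.59 CPM in LNCaP-RRM2, against 7.69 and 4.42 CPM in LNCaP-EV. The groups overlapped, and the difference was not called (log2 fold change 0.54, 95% interval -0.20 to 1.29, edgeR adjusted p = 0.190). Its direction turned to -0.40 (SE 0.16) with the GC trend removed, and HES4 was called higher without LNCaP-EV replicate 1 (log2 fold change 1.01, edgeR adjusted p = 0.00434; range over all alternatives 0.00434 to 0.575).

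HES6 encodes a HES relative that in mouse counteracts HES1, and it is located on chromosome 2 from 238238267 to 238240124 on the minus strand. HES6 had 61.0 and 50.8 CPM in LNCaP-RRM2, against 29.3 and 20.4 CPM in LNCaP-EV. All values of LNCaP-RRM2 exceeded those of LNCaP-EV, and the rise was 2.24-fold (log2 fold change 1.17, SE 0.19, edgeR adjusted p = 0.00874). With the GC trend removed the log2 fold change was 0.41 (SE 0.11), under the fold limit. HES6 also lost its call without LNCaP-RRM2 replicate 1 (edgeR adjusted p = 0.0680; range over all alternatives 1.62e-08 to 0.131). Thus of the 4 HES and HEY members 1 rose, 1 fell and 2 were not called. Once the GC trend was removed, 1 fell (HEY1) and none was called higher. HES6 then passed the adjusted test and missed only the fold limit (edgeR adjusted p = 0.0109). On the negative side, HES1 had a log2 fold change of -0.42 (interval -0.83 to -0.01) and HES4 one of -0.40 (interval -0.75 to -0.05). Neither was called lower (edgeR adjusted p = 0.0729 for HES1 and 0.0521 for HES4).

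The order of the genes by level was compared per kilobase of the longest GENCODE transcript. In LNCaP-RRM2 it ran HES6 (34.9 CPM per kilobase), JAG1 (24.6), JAG2 (14.8), NOTCH2 (10.4), HES4 (8.52), NOTCH3 (4.39), NOTCH1 (3.95), HES1 (3.39), HEY1 (0.793) and NOTCH4 (0.0136). In LNCaP-EV it ran HES6 (15.5 CPM per kilobase), JAG1 (11.8), NOTCH2 (7.24), JAG2 (6.58), HES4 (5.82), HES1 (4.47), HEY1 (2.25), NOTCH1 (1.64), NOTCH3 (1.03) and NOTCH4 (0.0633). NOTCH1 and NOTCH3 thus stood above HEY1 in LNCaP-RRM2 and below it in LNCaP-EV. Neighbours whose libraries overlapped were NOTCH3 with NOTCH1 and NOTCH1 with HES1 in LNCaP-RRM2, and NOTCH2 with JAG2, JAG2 with HES4, HES4 with HES1 and NOTCH1 with NOTCH3 in LNCaP-EV. The order assumes that the longest transcript is the one expressed.

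The members differed in the GC content of their transcripts. JAG2, NOTCH1, NOTCH3, HES4 and HES6 (62.9% to 73.9% GC) were in the top decile of tested genes, NOTCH4 (61.7%) in the next, and JAG1, NOTCH2, HES1 and HEY1 (47.3% to 49.9%) near the middle. In the 5 genes of the top decile the log2 ratio of replicate 1 over replicate 2 was 0.27 to 0.44 in LNCaP-RRM2 and 0.52 to 0.84 in LNCaP-EV. For JAG1 and NOTCH2 these ratios were -0.03 and -0.01 in LNCaP-RRM2 and 0.08 and -0.02 in LNCaP-EV. With each library's trend removed, 4 members rose (JAG1, JAG2, NOTCH1 and NOTCH3) and 2 were called lower (NOTCH4 and HEY1), against 21.5% of all genes called, 11.1% higher and 10.5% lower, and the median of the 10 was 0.46 against -0.11 for all genes. That step removes any difference between the groups that follows GC content, whatever its source.

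**Figure D4:**
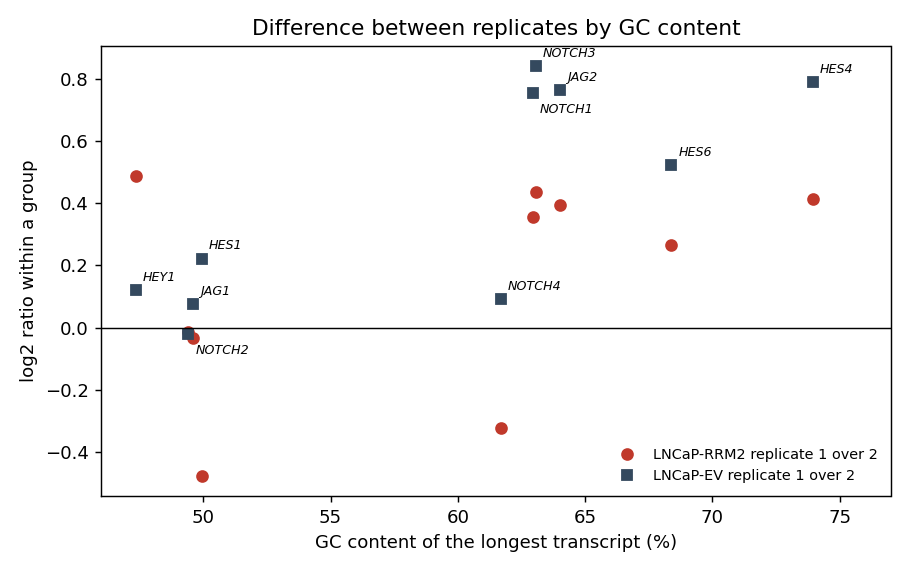
Log2 ratio of replicate 1 over replicate 2 within each group against the GC content of the longest transcript, in percent, for the 10 genes (names stand beside the LNCaP-EV squares, and the LNCaP-RRM2 circle of a gene has the same horizontal position). The 5 genes with the highest GC content lie above 0 in both groups.

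The other genes of the pathway were taken from 7 lists by role. Of their 57 genes 46 were tested, of which 7 rose and 0 fell, and the median log2 fold change was 0.25. The count of falls was 0 by DESeq2 and limma-voom as well. An unadjusted edgeR p below 0.05 was reached by 18 genes with a positive and 9 with a negative fold change. At least 42.2% of all genes reached it, the share that passed the adjusted test. The exact share of all genes was not counted. Of the 46, 12 higher and 5 lower passed edgeR's adjusted test without the fold limit, against 17.8% and 24.4% of all genes. The share that rose, 15.2%, was near the 12.5% of all genes.

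Among the other ligands, 1 of 3 tested rose. DLL1, a ligand of the Delta type, had 3.60 ± 0.688 CPM in LNCaP-RRM2 and 1.53 ± 0.473 CPM in LNCaP-EV (SD, n = 2 each), a rise of 2.33-fold (edgeR adjusted p = 0.0209). DLL3, a Delta family member that does not activate the receptor on neighbouring cells, had 5.81 ± 0.176 CPM in LNCaP-RRM2 and 6.59 ± 0.431 CPM in LNCaP-EV (log2 fold change -0.18). It was called lower with the GC trend removed (log2 fold change -0.82). DLK2, a related membrane protein gene, had a log2 fold change of 0.73 that was not called.

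The 9 genes that cut the receptor all had positive log2 fold changes, of which 2 were called and 7 passed the test without the fold limit, against 48.2% of all genes with a positive value, 12.5% called higher and 17.8% past the test and higher without the fold limit. With the GC trend removed 8 of the 9 were positive, FURIN, a protease gene, being at -0.15. These were small differences, with a median log2 fold change of 0.44. APH1B and PSEN2, which encode subunits of gamma-secretase, rose 1.65-fold and 1.54-fold, and with the GC trend removed APH1B was still called (log2 fold change 0.81) but PSEN2 was not (0.46). ADAM10, the protease that makes the first ligand-induced cut, had 340.0 ± 5.46 CPM in LNCaP-RRM2 and 229 ± 22.5 CPM in LNCaP-EV, and its log2 fold change of 0.57 was just under the fold limit (0.67 and called with the GC trend removed). APH1A, another subunit, had a log2 fold change of 0.24 that was not called.

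Of 4 tested genes that add sugars to the receptor, 1 rose. LFNG, the fringe enzyme that alters which ligands a receptor answers to, had 5.74 ± 1.16 CPM in LNCaP-RRM2 and 1.86 ± 1.09 CPM in LNCaP-EV, a rise of 3.04-fold (edgeR adjusted p = 0.0259; 2.15-fold with the GC trend removed). POFUT1, which attaches the fucose that fringe extends, and POGLUT1 had log2 fold changes of 0.16 and 0.01 and were not called. Of 11 tested genes of ubiquitination and traffic, 2 rose, the endocytic adaptor gene NUMBL (1.68-fold) and the ubiquitin ligase gene DTX2 (1.60-fold). Neither was called with the GC trend removed. The ubiquitin ligase genes ITCH and MIB1 had log2 fold changes of -0.19 and -0.09.

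In the nuclear complex that acts on the target genes, 8 of 9 genes had negative log2 fold changes, with a median of -0.29, against 51.8% of all genes with a negative value. None was called by edgeR, DESeq2 or limma-voom, and 4 passed edgeR's test without the fold limit, all lower (24.4% of all genes). An unadjusted edgeR p below 0.05 was found for 6, all lower, against at least 24.4% of all genes. All 9 were negative with the GC trend removed, against 58.9% of all genes. RBPJ had 112 ± 2.33 CPM in LNCaP-RRM2 and 136 ± 8.70 CPM in LNCaP-EV (log2 fold change -0.29, SE 0.07, edgeR adjusted p = 0.0286). The acetyltransferase gene EP300 had a log2 fold change of -0.25. Of 8 tested corepressor genes none was called by the 3 tools. An unadjusted p below 0.05 in edgeR was found for 2, 1 higher and 1 lower, against at least 42.2% of all genes. HDAC1, a histone deacetylase gene, and SPEN, which encodes a corepressor that binds RBPJ, had log2 fold changes of -0.18 and -0.11.

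Of 7 further genes, listed as targets or as relatives of targets, only HES2 and NRARP were tested. HES2, another HES family gene, had 9.12 ± 0.853 CPM in LNCaP-RRM2 and 2.86 ± 0.242 CPM in LNCaP-EV, a rise of 3.19-fold (log2 fold change 1.67, SE 0.16, edgeR adjusted p = 0.00297). NRARP, a target gene whose product feeds back on the Notch complex, had 23.3 ± 1.95 CPM in LNCaP-RRM2 and 25.8 ± 2.40 CPM in LNCaP-EV, with overlapping groups and no call (log2 fold change -0.15, SE 0.12, edgeR adjusted p = 0.363). With the GC trend removed NRARP was called lower (log2 fold change -0.90, SE 0.18) and HES2 was still called higher (1.40, SE 0.19).

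**Figure D5:**
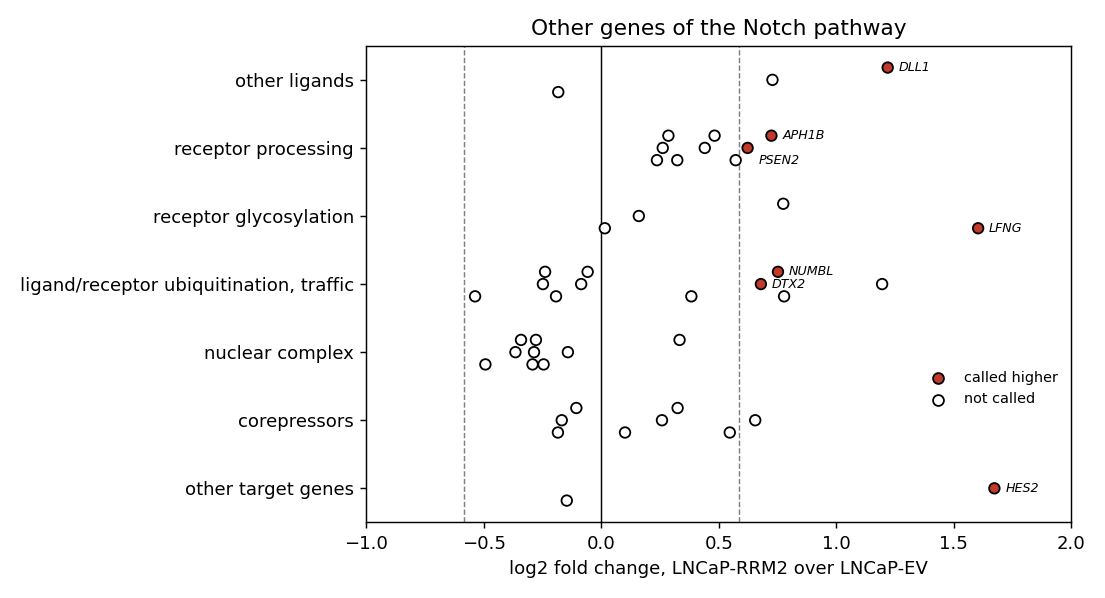
Log2 fold change, LNCaP-RRM2 over LNCaP-EV, of the 46 tested genes of the pathway lists, 1 point a gene, grouped by role. Filled points were called higher, open points were not called and dashed lines mark a fold change of 1.5; the 9 receptor processing genes all lie right of 0, and 8 of the 9 nuclear complex genes lie left of it.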

How the data were processed

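RNA sequencing was performed on 4 libraries of LNCaP cells, grouped and numbered by their titles. Partek Flow was used for the reads, which were paired, by the study's methods. The aligner, genome build, annotation and strand setting were not given in the sources used here. What the authors deposited are estimated gene counts that are not scaled between libraries (56.1% to 58.1% of values were whole), and these expected counts were rounded before testing. Every value column belonged to a sample. Positions match GRCh38, and 1 was subtracted from gene ends, which for 5566 genes lay 1 above the GENCODE end. On the opposite strand, JAG1, NOTCH1 and HES6 overlap 1 annotated gene each, whose reads may not be told apart. JAG2, like NOTCH4, overlaps 1 annotated gene on its own strand, and reads may be shared there too.

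Genes were filtered with filterByExpr (15162 of 17141 left) and scaled with TMM factors. They were compared with the quasi-likelihood F-test of edgeR 4.0.16 under R 4.3.3 without covariates, with Benjamini-Hochberg adjustment over all genes. These steps were run on simulated data as well. The simulated data held no GC trend, so they cannot tell how the test performs under the trend seen here. Fold changes have LNCaP-RRM2 on top, or LNCaP-EV for a fall given as a fold, and SEs are on the log2 scale. GC content and length come from the longest basic transcript of GENCODE 29 (94.8% of genes), promoters from RefSeq (9 of 10 members). The GC trend was removed per library with a lowess curve (span 0.3) entered as an offset centred on the median. Alternatives were DESeq2 size factors, total counts, upper-quartile factors, no filter or a stricter one (1 CPM or more in 2 libraries, with a mean of 5 CPM or more), DESeq2 1.42.0, limma-voom (limma 3.58.1), no fold limit, a replicate block, the GC trend with and without the block, and leaving out each library. The GC trend without each library was added after seeing the data. In a fit without a library, the spread of its group comes from the other group alone.

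The named genes were the members, RRM2, pathway genes that were called, and per list up to 2 not called with the highest mean CPM. NOTCH2NL was added as a gene that can share reads, and GPSM3 likewise after its values were seen. The members, lists and rules were chosen with earlier results of these data known, and the promoter motifs after the values were seen. Counts of the replicates of a group differed by more than sampling (chi-square over degrees of freedom 7.77 in LNCaP-RRM2 and 23.4 in LNCaP-EV). That spread includes the GC trend and does not tell whether the replicates stem from the same RNA or culture. The neuroendocrine markers (3 of 7 in the table, 29.2 to 31.9 CPM in LNCaP-RRM2 and 23.9 to 24.2 CPM in LNCaP-EV) completed the marker lists.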

Additional observations from a re-analysis of the deposited data

How the results depend on the processing

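The groups hold 2 libraries each, which limits every test, and counting error matters most for NOTCH4. Over all alternatives, 159 of the members' values kept their direction and call, 16 lost the call, 7 gained one and 6 reversed. The reversals were all HES4 with the GC trend removed, at a log2 fold change of -0.40, -0.41 with a replicate block and -0.57, -0.17, -0.30 and -0.50 without LNCaP-EV replicate 1, LNCaP-EV replicate 2, LNCaP-RRM2 replicate 1 and LNCaP-RRM2 replicate 2.

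Without each library in turn, 3 to 8 members were called, 2 to 6 higher and 0 to 2 lower, with 3 in all without either LNCaP-RRM2 library, while 1 to 14 pathway genes were called, 1 to 13 higher and 0 to 1 lower, and 596 to 4468 of all genes, 362 to 3003 higher and 234 to 1465 lower. With the GC trend removed as well, 4 to 8 members were called, 3 to 6 higher and 1 to 3 lower, 0 to 4 pathway genes were lower and 929 to 1764 of all genes. The members called lower were 0 under the stricter filter, which does not hold HEY1 and NOTCH4, and 1 by DESeq2. The pathway genes called were 13 with DESeq2 size factors, 11 with total counts and 12 with upper-quartile factors, all higher, and 17 without the fold limit, 12 higher and 5 lower. With the GC trend removed 2 were lower, and 2 also with the block. Of all genes, 612 were lower under the stricter filter, and without the fold limit 6399 were called, 3695 of them lower. The share of all calls that were higher was 61.1%, and it was 70.9% to 75.0% with the other scalings or the stricter filter, 51.3% with the GC trend removed and 42.3% without the fold limit. The shared replicate numbers are not stated to mark a pairing (correlation of same-numbered deviations across genes 0.30); with the replicate block 11 pathway genes were called, all higher, and the same 7 members.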
